A study of Mus musculus with 6 samples.

Results

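Retinoid metabolism was described here through 8 genes, Rbp4, Adh1, Rdh10, Dhrs3, Aldh1a1, Aldh1a2, Aldh1a3 and Aldh1a7, which were found by their symbols among the 21367 genes of the expression table. Retinol (vitamin A) reaches the kidney bound to retinol-binding protein, the product of Rbp4, which is filtered at the glomerulus and recovered by the proximal tubule. Inside cells, alcohol dehydrogenases such as Adh1 and the retinol dehydrogenase Rdh10 oxidise retinol to retinal, Dhrs3 reduces retinal back to retinol, and the enzymes of Aldh1a1, Aldh1a2 and Aldh1a3 oxidise retinal irreversibly to retinoic acid, the ligand of the RAR nuclear receptors. Rdh10 with the ALDH1A enzymes sets where retinoic acid is made in the developing kidney and in other embryonic tissues, and Dhrs3 and the Cyp26 hydroxylases limit its level.

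The groups were 3 Ptpn6+/mev mice and their 3 wild-type littermates, on a C57BL/6 background and 7 weeks old. The mev (viable motheaten) allele is a splice-site mutation of Ptpn6, which codes for the tyrosine phosphatase SHP-1, and the mutant mice were heterozygotes with 1 copy of it, so that every cell kept a normal copy as well. Every mouse of both groups had its right kidney removed and the vessels of the left kidney clamped for 34 min, and the left kidney was taken after 24 h of reperfusion (ischemia-reperfusion injury, IRI). Kidneys without IRI were not analysed here, so all values below are levels in injured kidneys.

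Total counts per library ranged from 10271590 to 12361745. Ptpn6 itself had 11.85, 14.66 and 13.61 FPKM (fragments per unit of transcript length and per unit of library size) in Ptpn6+/mev replicates 1 to 3 and 17.47, 10.87 and 15.44 FPKM in wild-type replicates 1 to 3, and its groups overlapped (log2 fold change -0.19, SE 0.17, edgeR adjusted p = 0.715). A splice-site allele need not change the total level of its mRNA, so this level was not taken as a check of the labels. Wild-type replicate 2 stood apart from the other libraries. Its 10 endothelial markers summed to 138 FPKM against 313 to 357 FPKM elsewhere, its 10 fibroblast and mesangial markers to 101 FPKM against 312 to 390 FPKM, and the androgen-regulated proximal tubule transcript Kap reached 10201 FPKM against 1520 to 2882 FPKM. Fold changes are given with and without it for Aldh1a1, Aldh1a7, Rdh10, Aldh1a2, Aldh1a3, Adh1, Dhrs3, Stra6l and Retsat, and medians for the marker lists. For genes whose direction turned when single libraries were left out, the range is given at the end. In whole-kidney RNA, fewer cells of a type and less RNA per cell cannot be told apart.

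Aldh1a1 and Aldh1a7 are near copies, so their sequences are shown first to make clear how far their reads can be told apart. In GENCODE M21 (GRCm38) Aldh1a1 spans chr19:20492715-20643465 on the plus strand and Aldh1a7 spans chr19:20692953-20727562 on the minus strand, 49487 bases apart. The coding sequences, 1503 bases each, were 91.6% identical, and 126 bases differed. Every other pair of ALDH1A genes was 67.4% to 68.9% identical. The longest identical run between Aldh1a1 and Aldh1a7 was 100 coding bases, and none of the 1354 windows of 150 bases in Aldh1a1, the length of the reads, occurred in Aldh1a7. Neither gene had a fractional count in any library. The 60 coding bases at which the pair differed most, bases 317 to 376 of each coding sequence, differ at 16 positions, written in capitals. They lie in exon 4 of 13 of both transcripts, at chr19:20619973-20620032 for Aldh1a1 and chr19:20719252-20719311 for Aldh1a7, and are read along the coding strand.
Aldh1a1: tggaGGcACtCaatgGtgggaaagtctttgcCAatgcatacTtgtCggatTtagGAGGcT
Aldh1a7: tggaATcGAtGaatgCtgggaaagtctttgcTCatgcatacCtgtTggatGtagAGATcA

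The likeness extends upstream of the genes. RefSeq (GRCm38.p6) places a start of Aldh1a1 directly after chr19:20601718-20601967 and the start of Aldh1a7 directly after chr19:20727557-20727806 on the minus strand. These 250 bases before the starts are shown because both genes had lower levels in every Ptpn6+/mev kidney. They were 73.6% identical over 235 aligned bases, and a run of 65 bases, in capitals, was the same in both and sat at the same place, 94 to 30 bases before the start.
Aldh1a1: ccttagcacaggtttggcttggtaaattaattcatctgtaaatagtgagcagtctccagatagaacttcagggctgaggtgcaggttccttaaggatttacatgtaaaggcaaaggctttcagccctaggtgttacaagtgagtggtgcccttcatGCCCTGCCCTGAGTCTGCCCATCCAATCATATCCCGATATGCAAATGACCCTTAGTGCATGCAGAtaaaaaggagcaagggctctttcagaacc
Aldh1a7: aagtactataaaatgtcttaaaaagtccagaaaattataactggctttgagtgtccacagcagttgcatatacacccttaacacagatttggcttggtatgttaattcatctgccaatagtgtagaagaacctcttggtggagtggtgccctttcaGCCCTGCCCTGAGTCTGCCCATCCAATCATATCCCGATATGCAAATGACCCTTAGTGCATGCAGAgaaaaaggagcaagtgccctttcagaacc
The other start that RefSeq gives for Aldh1a1 lies further upstream, and the 250 bases before it were 53.4% identical to those of Aldh1a7 over 232 aligned bases. The letters AGGTCA, the core that RAR, RXR and PPAR receptors recognise, were searched on both strands of the 10 promoter windows that RefSeq gives for 6 of the 8 genes, each reaching from 250 bases before to 50 bases after the start. None of the 10 windows held them, and 16.3% of all 32851 promoter windows did. Windows of Dhrs3 overlapped, and so few windows cannot show whether the letters are rarer here than in other promoters. Aldh1a3 and Rdh10 have no entry in that table.

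The comparison asked which steps of retinoid metabolism differed between Ptpn6+/mev and wild-type kidneys after IRI. Transcripts of the aldehyde dehydrogenases Aldh1a1 and Aldh1a7 were at lower levels in every Ptpn6+/mev kidney than in any wild-type kidney, by 2.48-fold and 1.76-fold on the fitted scale, and those of the retinol oxidase Rdh10 were lower on average by 1.44-fold. Adh1, the most abundant of the genes, and Dhrs3, the reductase, had nearly equal means in the groups when all 6 libraries were used. Both had their lowest wild-type value in replicate 2. Without it the log2 fold change was -0.27 for Adh1 (edgeR adjusted p = 0.293) and -0.23 for Dhrs3 (edgeR adjusted p = 0.438). The 95% intervals of Rbp4, Aldh1a2 and Aldh1a3 reached across 0, and the sign turned for Aldh1a2, Aldh1a3 and Adh1 when single libraries were left out. No gene of the 8 passed the edgeR quasi-likelihood test at an adjusted p under 0.05, a level that 0.138% of the 13036 tested genes reached (18 genes). At an unadjusted p under 0.05, 3 of the 8 were lower in Ptpn6+/mev kidneys, and 6.71% of all tested genes were. All p-values measure the spread between 3 mice per group.

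**Figure D1:**
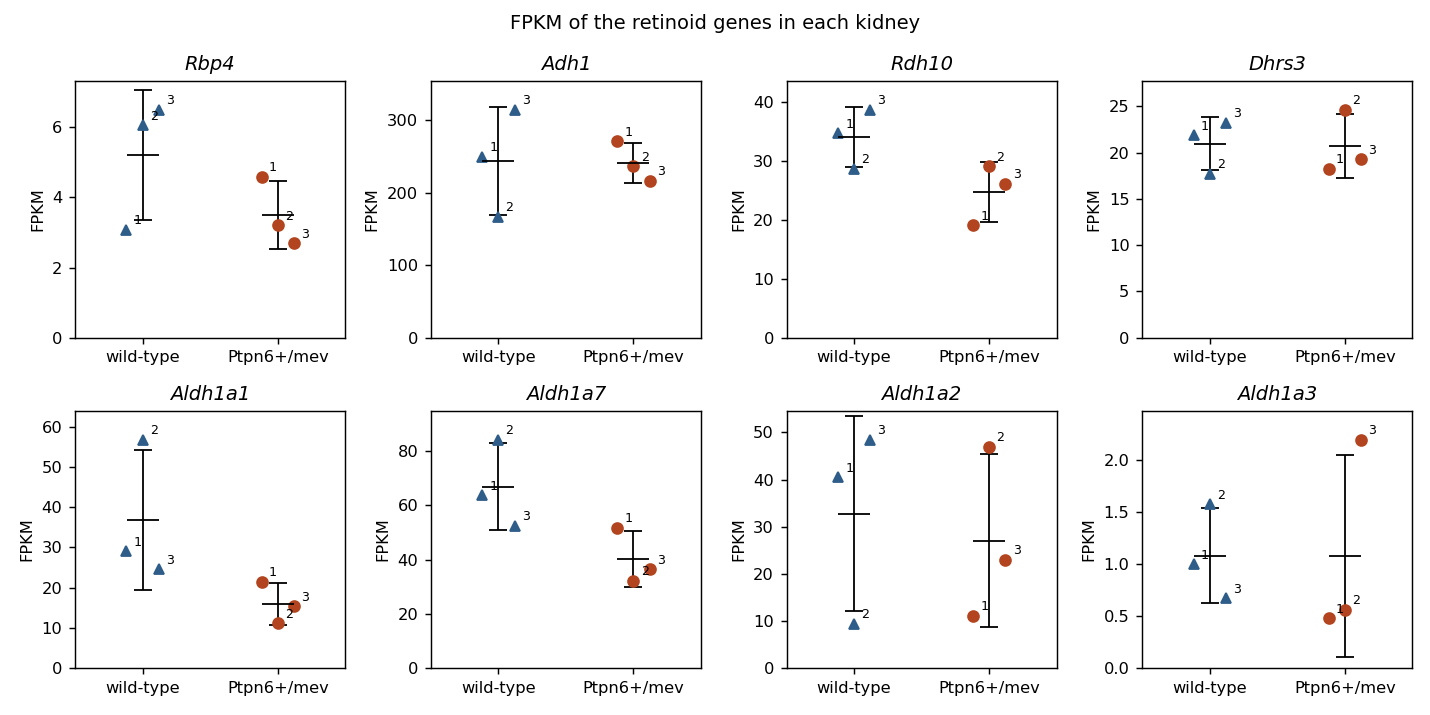
FPKM of each gene in the 3 wild-type (blue triangles) and 3 Ptpn6+/mev kidneys (red circles), numbered by replicate, with the mean and SD as bars and each vertical axis starting at 0. The groups are apart for Aldh1a1 and Aldh1a7 and overlap for the other 6 genes.

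By mean FPKM over the 6 libraries, Adh1 (242.4 FPKM) stood above Aldh1a7 (53.5 FPKM), Aldh1a2 (29.9 FPKM), Rdh10 (29.4 FPKM), Aldh1a1 (26.4 FPKM), Dhrs3 (20.8 FPKM), Rbp4 (4.35 FPKM) and Aldh1a3 (1.08 FPKM). Adh1 was above Aldh1a7 in all 6 libraries, Aldh1a7 above Aldh1a2 in 5, Dhrs3 above Rbp4 in 6 and Rbp4 above Aldh1a3 in 6. The neighbours between them did not keep their order: Aldh1a2 was above Rdh10 in 3 libraries, Rdh10 above Aldh1a1 in 4 and Aldh1a1 above Dhrs3 in 4.

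Rbp4 (chr19:38116629-38125281, minus strand), which codes for the plasma carrier of retinol and is made mainly in liver and fat, had 4.59, 3.21 and 2.69 FPKM in Ptpn6+/mev replicates 1 to 3 and 3.08, 6.05 and 6.50 FPKM in wild-type replicates 1 to 3. The groups overlapped through wild-type replicate 1, the lowest of its group. The log2 fold change was -0.65 (SE 0.35, 95% interval -1.47 to 0.17, edgeR adjusted p = 0.528), and between 27 and 75 counts lay behind each value. The 8 liver markers summed to 17.4, 14.5 and 9.81 FPKM in Ptpn6+/mev kidneys and 28.6, 28.7 and 21.5 FPKM in wild-type kidneys, so their groups were apart in the direction of the means of Rbp4. Ahsg and Hamp were at 0 in all 6 libraries, whereas Serpina1a reached 17.5 FPKM and Alb had 1.81, 1.70 and 2.23 FPKM in Ptpn6+/mev kidneys and 3.68, 6.29 and 5.35 FPKM in wild-type kidneys (log2 fold change -1.49, edgeR adjusted p = 0.0852, exact test adjusted p = 0.000239). The 8 adipocyte markers summed to 72.3, 1.74 and 1.06 FPKM in Ptpn6+/mev replicates 1 to 3 and 95.8, 11.8 and 79.3 FPKM in wild-type replicates 1 to 3, and Adipoq, which marks fat cells, had 5.19, 0 and 0 FPKM in Ptpn6+/mev kidneys and 4.36, 0.07 and 7.30 FPKM in wild-type kidneys. The 3 Ptpn6+/mev kidneys stood in the same order for Rbp4 and for the adipocyte sum, and the wild-type kidneys did not. The part of the cells of either list in the level of Rbp4 was not tested.

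Adh1 (chr3:138260991-138290698, plus strand) codes for the class I alcohol dehydrogenase, an abundant cytosolic enzyme that clears retinol as well as ethanol. It had 270.72, 236.7 and 216.2 FPKM in Ptpn6+/mev kidneys and 249.73, 166.84 and 314.46 FPKM in wild-type kidneys. The wild-type group held both the lowest and the highest value, so the means of 241.2 ± 27.5 (SD, n = 3) and 243.7 ± 74.0 FPKM (SD, n = 3) lay much closer together than the mice of either group. Its log2 fold change was -0.073 with a 95% interval of -0.51 to 0.36 (edgeR adjusted p = 0.923), and its sign turned under several alternatives.

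Rdh10 (chr1:16105774-16133734, plus strand) codes for the microsomal retinol dehydrogenase that supplies retinal for retinoic acid synthesis. It had 19.12, 29.07 and 26.10 FPKM in Ptpn6+/mev kidneys and 34.68, 28.70 and 38.71 FPKM in wild-type kidneys. Only Ptpn6+/mev replicate 2 and wild-type replicate 2 crossed, by less than 1 FPKM. The means were 24.8 ± 5.11 (SD, n = 3) and 34.0 ± 5.04 FPKM (SD, n = 3), and the log2 fold change was -0.52 (SE 0.16, 95% interval -0.89 to -0.15, edgeR adjusted p = 0.239). Without wild-type replicate 2 it was -0.61 with an edgeR adjusted p of 0.0776.

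Dhrs3 (chr4:144892827-144928209, plus strand) codes for the retinal reductase that works against Rdh10 and is itself induced by retinoic acid in many cells. It had 18.26, 24.64 and 19.25 FPKM in Ptpn6+/mev kidneys and 21.90, 17.70 and 23.21 FPKM in wild-type kidneys. The 2 sets of values interleaved, and the lowest of the 6 was wild-type. The log2 fold change was -0.11 (SE 0.16, 95% interval -0.47 to 0.25, edgeR adjusted p = 0.848). Of the 8 genes Dhrs3 varied least within groups, with an SD of 0.209 on the log2(FPKM + 1) scale, more than that of 65.4% of the tested genes.

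Aldh1a1 codes for a cytosolic retinal dehydrogenase that also clears lipid aldehydes. It had 21.42, 11.10 and 15.34 FPKM in Ptpn6+/mev replicates 1 to 3 and 29.07, 56.78 and 24.58 FPKM in wild-type replicates 1 to 3. Every Ptpn6+/mev kidney was below every wild-type kidney, and the highest value, in wild-type replicate 2, was greater than the other 2 wild-type values added together. The means were 15.95 ± 5.19 (SD, n = 3) and 36.8 ± 17.4 FPKM (SD, n = 3). The log2 fold change was -1.31 (SE 0.38, 95% interval -2.18 to -0.44, edgeR unadjusted p = 0.00831, adjusted p = 0.21). Without wild-type replicate 2 it was -0.79 (edgeR adjusted p = 0.112), and the groups were still apart.

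Aldh1a7, a mouse gene next to Aldh1a1, codes for a relative of that enzyme that oxidises aldehydes but acts poorly on retinal. It had 51.85, 32.22 and 36.44 FPKM in Ptpn6+/mev kidneys and 63.78, 84.28 and 52.54 FPKM in wild-type kidneys. The groups were apart by less than 1 FPKM, between Ptpn6+/mev replicate 1 and wild-type replicate 3. The means were 40.2 ± 10.3 (SD, n = 3) and 66.9 ± 16.1 FPKM (SD, n = 3), and the log2 fold change was -0.82 (SE 0.24, 95% interval -1.36 to -0.27, edgeR unadjusted p = 0.00866, adjusted p = 0.212). Without wild-type replicate 2 it was -0.57 (edgeR adjusted p = 0.142). Groups that lay apart with the lower values in Ptpn6+/mev kidneys were found for these 2 of the 8 genes and for 6.38% of all tested genes.

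The calls on Aldh1a1, Aldh1a7 and Rdh10 depended on the test. By edgeR's exact test, which called 2.99% of all genes, Aldh1a1 (adjusted p = 0.0255) and Aldh1a7 (adjusted p = 0.0412) passed. DESeq2, which called 2.97% of all genes, also called these 2, with adjusted p of 0.0106 and 0.0309. Voom with weights for the quality of each library, which called 3.77%, called Aldh1a1 (adjusted p = 0.0487), Aldh1a7 (adjusted p = 0.0421) and Rdh10 (adjusted p = 0.0487). When wild-type replicate 2 was left out, the quasi-likelihood test called 1.8% of its genes and none of the 8.

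Aldh1a2 (chr9:71215789-71296243, plus strand) codes for the main retinoic acid-forming enzyme of embryos, found in mesenchyme and mesothelium. It had 11.06, 47.0 and 22.95 FPKM in Ptpn6+/mev kidneys and 40.45, 9.38 and 48.44 FPKM in wild-type kidneys. Each group held a value near 10 FPKM and a value above 40 FPKM, and the highest library was 5.16 times the lowest. Its SD within groups, 1.12 on the log2(FPKM + 1) scale, was greater than that of 99.9% of the tested genes, whose median was 0.167. The log2 fold change was -0.32 (SE 0.62, 95% interval -1.74 to 1.09, edgeR adjusted p = 0.894), and it was -0.76 without wild-type replicate 2, 0.049 without Ptpn6+/mev replicate 1 and 0.053 without wild-type replicate 3. The fibroblast and mesangial markers together were lowest in wild-type replicate 2, as Aldh1a2 was. In Ptpn6+/mev replicates 1 to 3 they summed to 329, 370 and 312 FPKM, lowest in replicate 3, whereas Aldh1a2 was lowest in replicate 1. Col3a1, a collagen of fibroblasts, had 45.88, 91.57 and 59.85 FPKM in Ptpn6+/mev kidneys and 79.04, 20.21 and 81.97 FPKM in wild-type kidneys, and within each group its kidneys stood in the order of Aldh1a2. Acta2, the smooth muscle actin and the most abundant of the list, was highest in Ptpn6+/mev replicate 1, where Aldh1a2 was lowest in its group. Within the Ptpn6+/mev group, Col1a1, Col1a2, Col3a1, Pdgfrb and Lum of the list were lowest in replicate 1, as Aldh1a2 was. Dcn, Postn, Pdgfra, Itga8 and Acta2 were not. The part of these cells in the level of Aldh1a2 was not tested.

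Aldh1a3 (chr7:66390890-66427517, minus strand), which codes for a retinal dehydrogenase of epithelia such as the ureteric bud, was the rarest. It had 0.48, 0.56 and 2.20 FPKM in Ptpn6+/mev kidneys and 1.00, 1.58 and 0.67 FPKM in wild-type kidneys, from 10 to 62 counts. The highest value, in Ptpn6+/mev replicate 3, stood in the group that also held the 2 lowest. The log2 fold change was -0.42 (SE 0.69, 95% interval -2.01 to 1.17, edgeR adjusted p = 0.872) and 0.12 without wild-type replicate 2. Upk3b, a marker of mesothelium and urothelium, had 0.71, 0.93 and 3.02 FPKM in Ptpn6+/mev kidneys and 2.04, 3.88 and 1.05 FPKM in wild-type kidneys. The same 2 libraries, Ptpn6+/mev replicate 3 and wild-type replicate 2, were highest for Upk3b, for the 6 mesothelium markers together (54.2 and 56.4 FPKM against 27.9 to 35.4 FPKM) and for Aldh1a3. Most of that sum was Krt19, a keratin that other epithelia also make, with 38.67 and 37.67 FPKM in these 2 libraries. Gpm6a of the same list had 6.22 FPKM in Ptpn6+/mev replicate 3 and 7.36 FPKM in Ptpn6+/mev replicate 1, and Lrrn4, another mesothelial gene, was at or near 0 in all libraries. The part of these cells in the level of Aldh1a3 was not tested.

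**Figure D2:**
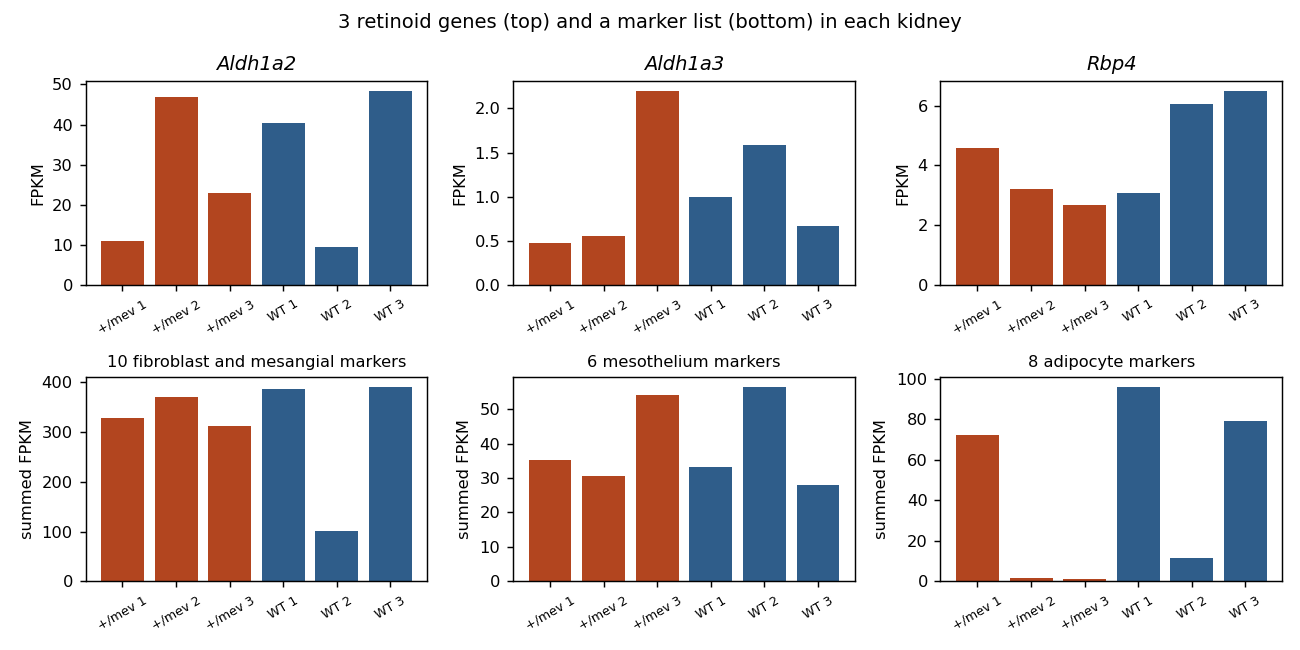
FPKM of Aldh1a2, Aldh1a3 and Rbp4 in each kidney (top) and summed FPKM of the fibroblast and mesangial, mesothelium and adipocyte markers (bottom), with Ptpn6+/mev mice in red and wild-type (WT) mice in blue. Ptpn6+/mev replicate 3 and wild-type replicate 2 are the highest for both Aldh1a3 and the mesothelium markers. Rbp4 and the adipocyte markers stand in the same order in the Ptpn6+/mev kidneys and in different orders in the wild-type kidneys.

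The ALDH1A transcripts together, those of Aldh1a7 included, summed to 84.8, 90.9 and 76.9 FPKM in Ptpn6+/mev kidneys and 134.3, 152.0 and 126.2 FPKM in wild-type kidneys. The sums were apart, with means of 84.2 ± 7.0 (SD, n = 3) and 137.5 ± 13.2 FPKM (SD, n = 3), and in each group the SD was a smaller part of the mean than for Aldh1a1, Aldh1a2 or Aldh1a7 alone. This sum was given as a description and was not tested. Its make-up differed between mice of a group. Aldh1a2 made up 13.0%, 51.7% and 29.8% of the sum in Ptpn6+/mev kidneys and 30.1%, 6.17% and 38.4% in wild-type kidneys. Aldh1a7 made up 61.1%, 35.5% and 47.4% and then 47.5%, 55.4% and 41.6%. The mouse with the least Aldh1a2 in each group was the one with the most Aldh1a1 and Aldh1a7. The ratio of Aldh1a7 to Aldh1a1 was 2.42, 2.90 and 2.38 in Ptpn6+/mev kidneys and 2.19, 1.48 and 2.14 in wild-type kidneys, so it was lowest in wild-type replicate 2.

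**Figure D3:**
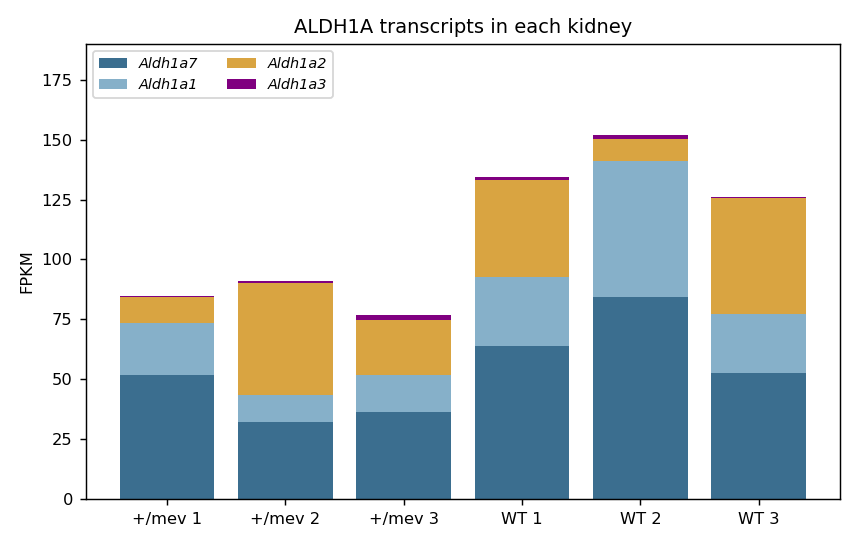
FPKM of the 4 ALDH1A genes stacked for each kidney of Ptpn6+/mev (+/mev) and wild-type (WT) mice. The 3 Ptpn6+/mev sums lie between 76.9 and 90.9 FPKM and the 3 wild-type sums between 126.2 and 152.0 FPKM, while the part of Aldh1a2 changes from mouse to mouse.

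Of all tested genes, those whose profile over the 6 libraries was most like that of Aldh1a7 were Nqo1 (a quinone reductase), Acsf2 (an acyl-CoA synthetase) and Acot12 (an acetyl-CoA thioesterase), with root mean square differences of 0.0741, 0.138 and 0.14 in log2(FPKM + 1) centred on each gene. Nqo1 had 131.82, 89.7 and 94.34 FPKM in Ptpn6+/mev kidneys and 155.96, 230.26 and 148.77 FPKM in wild-type kidneys, and its 6 libraries stood in the same order as those of Aldh1a7. The genes nearest to Aldh1a1 were Ehhadh (a peroxisomal fatty acid oxidation enzyme), Cbr1 (a carbonyl reductase) and Cyp2a5 (a cytochrome P450), at 0.176, 0.185 and 0.208. All 6 were highest in wild-type replicate 2, like Aldh1a1 and Aldh1a7 themselves. The genes nearest to Rdh10 were Irf8 (a transcription factor of myeloid cells), Cyr61 (a matrix protein) and Cep41 (a ciliary protein), at 0.0697, 0.0746 and 0.0799. The median difference over all genes was 0.519 for Aldh1a7, 0.764 for Aldh1a1 and 0.361 for Rdh10. The likeness rests on 6 libraries, and genes read from the same library share its depth and its cell make-up.

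**Figure D4:**
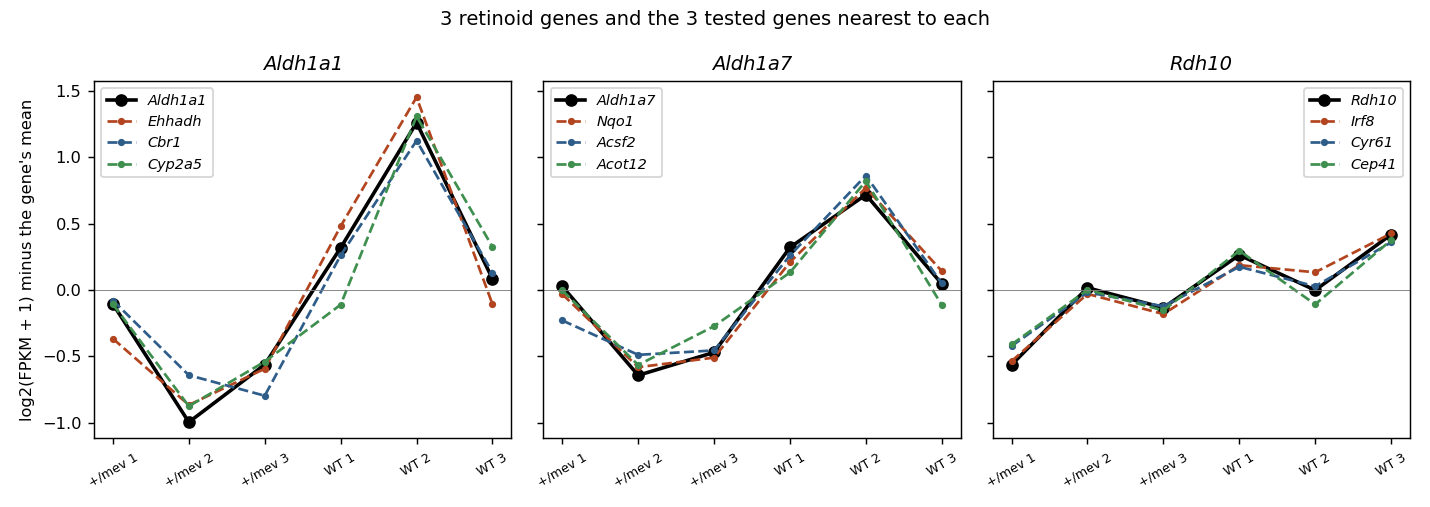
log2(FPKM + 1) minus the mean of each gene in the 6 kidneys for Aldh1a1, Aldh1a7 and Rdh10 (black) and the 3 tested genes nearest to each (dashed). Aldh1a1 and Aldh1a7 share a peak in wild-type replicate 2, and Rdh10 has its lowest point in Ptpn6+/mev replicate 1.

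For the genes without an unadjusted p under 0.05 the nearest profiles were looked up after their values were seen. Those nearest to Aldh1a2 were Ccl12, Cxcl14 and Ccl7, all chemokines, at 0.273 to 0.297. Ccl12 had 0.90, 9.67 and 3.62 FPKM in Ptpn6+/mev kidneys and 5.85, 0.85 and 4.96 FPKM in wild-type kidneys, low in Ptpn6+/mev replicate 1 and wild-type replicate 2 like Aldh1a2. Nearest to Aldh1a3 was Fxyd4, a regulator of the sodium pump in the collecting duct, at 0.0935. Fxyd4 had 39.42, 45.39 and 85.34 FPKM in Ptpn6+/mev kidneys and 56.16, 83.5 and 46.02 FPKM in wild-type kidneys. Nearest to Adh1 was Atp2b4 (0.0439), to Rbp4 Igfbp1 (0.122) and to Dhrs3 Morn2 (0.0301).

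The 8 genes were then set among 65 genes of retinoid uptake, storage, conversion, breakdown and response, in 10 lists that include them. Of the 65, 46 passed the filter on low counts, 11 were lower and 1 higher in Ptpn6+/mev kidneys at an unadjusted p under 0.05, and none passed the edgeR test after adjustment. Over all tested genes, 6.71% were lower and 5.53% higher at that level. By edgeR's exact test 5 of the 46 passed, by DESeq2 4 and by voom 7, against 2.99%, 2.97% and 3.77% of all tested genes, and 3 passed when wild-type replicate 2 was left out of the edgeR quasi-likelihood fit, against 1.8%. Log2 fold changes had a median of -0.13 over the 46, -0.47 over the 8 and -0.0024 over all tested genes. Without the 8 genes it was -0.085 over the remaining 38, of which 8 were lower and 1 higher at an unadjusted p under 0.05.

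Among carriers and uptake (9 genes, 6 tested, 2 lower), the 2 at an unadjusted p under 0.05 were the tubular receptors that recover retinol-binding protein. Cubn (cubilin) had 5.20, 8.33 and 5.01 FPKM in Ptpn6+/mev kidneys and 11.28, 9.46 and 11.02 FPKM in wild-type kidneys, with the groups apart and a log2 fold change of -0.84 (SE 0.19, edgeR adjusted p = 0.131). Lrp2 (megalin) had 28.55, 29.22 and 22.65 FPKM in Ptpn6+/mev kidneys and 37.52, 26.01 and 41.33 FPKM in wild-type kidneys. Its groups overlapped through wild-type replicate 2, and its log2 fold change was -0.44 (SE 0.16, edgeR adjusted p = 0.316). Without wild-type replicate 2, where 1.8% of all genes were called, both passed, Cubn at an edgeR adjusted p of 0.0465 and Lrp2 at 0.0354. Cubn also passed without Ptpn6+/mev replicate 2 (edgeR adjusted p = 0.0334), and with each other library left out the edgeR adjusted p was 0.165 to 0.506 for Cubn and 0.429 to 0.712 for Lrp2. By DESeq2 (adjusted p = 0.00339), the exact test (adjusted p = 0.00517) and voom (adjusted p = 0.015) Cubn passed, and by voom Lrp2 did (adjusted p = 0.0276). Ttr, the plasma partner of retinol-binding protein, lay at 25.49 to 38.14 FPKM in Ptpn6+/mev kidneys and 19.18 to 30.61 FPKM in wild-type kidneys. Stra6, a receptor for retinol-binding protein, was under 1 FPKM in every library. Stra6l (Stra6-like) of the same list had 11.15, 15.22 and 13.44 FPKM in Ptpn6+/mev kidneys and 14.76, 9.42 and 18.63 FPKM in wild-type kidneys. Its log2 fold change was -0.16 (SE 0.21, edgeR adjusted p = 0.834), or -0.37 without wild-type replicate 2 (edgeR adjusted p = 0.221). Rbp7, a cellular retinol carrier below the filter on low counts, had 1.57, 1.40 and 1.95 FPKM in Ptpn6+/mev kidneys and 0.45, 0.29 and 0 FPKM in wild-type kidneys, from 13 counts or fewer. Its groups were apart with the higher values in Ptpn6+/mev kidneys, and the edgeR fit without a filter gave an adjusted p of 0.214.

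Among enzymes that oxidise retinol (16 genes, 9 tested, 3 lower), the lower values were those of Rdh10, Rdh16 and Rdh16f2. Rdh16, a microsomal retinol and sterol dehydrogenase, had 6.63, 9.66 and 6.70 FPKM in Ptpn6+/mev kidneys and 21.32, 23.52 and 14.91 FPKM in wild-type kidneys. The groups were apart, and the log2 fold change was -1.45 (SE 0.23, edgeR adjusted p = 0.0685). Rdh16 passed without the filter on low counts (edgeR adjusted p = 0.0436), by DESeq2 (adjusted p = 7.5e-07), by the exact test (adjusted p = 1.4e-06) and by voom (adjusted p = 0.0079). It also passed without wild-type replicate 2 (edgeR adjusted p = 0.0193) or 3 (edgeR adjusted p = 0.0286), and with each other library left out the edgeR adjusted p was 0.106 to 0.369. Its counts were partly fractional, which can arise where near copies share reads, so its level is uncertain. In Ptpn6+/mev replicates 1 and 3 and wild-type replicate 1 they were whole, at 219, 232 and 740. Among other genes named here, Serpina1a, Cyp2a5, Rarres2 and Tgm2 also had fractional counts. Its neighbour Rdh16f2 had a log2 fold change of -0.58 (SE 0.20, edgeR adjusted p = 0.299). Adh5, the class III alcohol dehydrogenase, lay at 107.24 to 120.12 FPKM in all 6 kidneys.

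Among enzymes that reduce retinal (6 genes, all tested, 1 lower and 1 higher), Rdh12, a retinal reductase best known from photoreceptors, was the 1 of the 46 tested retinoid genes with higher values at an unadjusted p under 0.05. It had 2.95, 1.78 and 2.26 FPKM in Ptpn6+/mev kidneys and 0.66, 1.33 and 0.96 FPKM in wild-type kidneys. Every Ptpn6+/mev kidney was above every wild-type kidney, and the log2 fold change was 1.26 (SE 0.33, edgeR adjusted p = 0.181). Rdh12 passed the exact test (adjusted p = 0.0278) and voom (adjusted p = 0.0325), and its adjusted p was 0.0876 by DESeq2. Rdh12 and Scarb1, the scavenger receptor that takes up carotenoids, were the 2 of 46 genes whose groups were apart in this direction, against 14.0% of all tested genes, and 6 of the 46 were apart with the lower values in Ptpn6+/mev kidneys, against 6.38%. Dhrs4, a peroxisomal reductase, had a log2 fold change of -0.36 (SE 0.12, edgeR adjusted p = 0.249), with the groups apart. Rdh11, next to Rdh12 on chromosome 12, had a log2 fold change of 0.16 (SE 0.20, edgeR adjusted p = 0.825).

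Besides the ALDH1A genes, the step to retinoic acid (8 genes, 6 tested, 3 lower) held Aldh8a1, which oxidises 9-cis-retinal, with 81.6, 56.38 and 58.87 FPKM in Ptpn6+/mev kidneys, 77.48, 80.86 and 80.32 FPKM in wild-type kidneys and a log2 fold change of -0.35 (SE 0.15, edgeR adjusted p = 0.385). All 6 tested genes of this list, which counts Aldh1a7, had a log2 fold change below 0, with a median of -0.54, although that of Aldh1a2 and of Aldh1a3 turned when single libraries were left out. In storage and release (5 genes, 3 tested, 1 lower), Lpl (lipoprotein lipase) had a log2 fold change of -0.46 (SE 0.16, edgeR adjusted p = 0.306), Dgat1, which can esterify retinol, lay at 15.26 to 17.27 FPKM, and Lrat, the main retinol-esterifying enzyme of liver and eye, was at 0.25 FPKM or lower. In carotene cleavage (3 genes, all tested, none at an unadjusted p under 0.05), Bco1 lay at 5.13 to 10.48 FPKM.

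**Figure D5:**
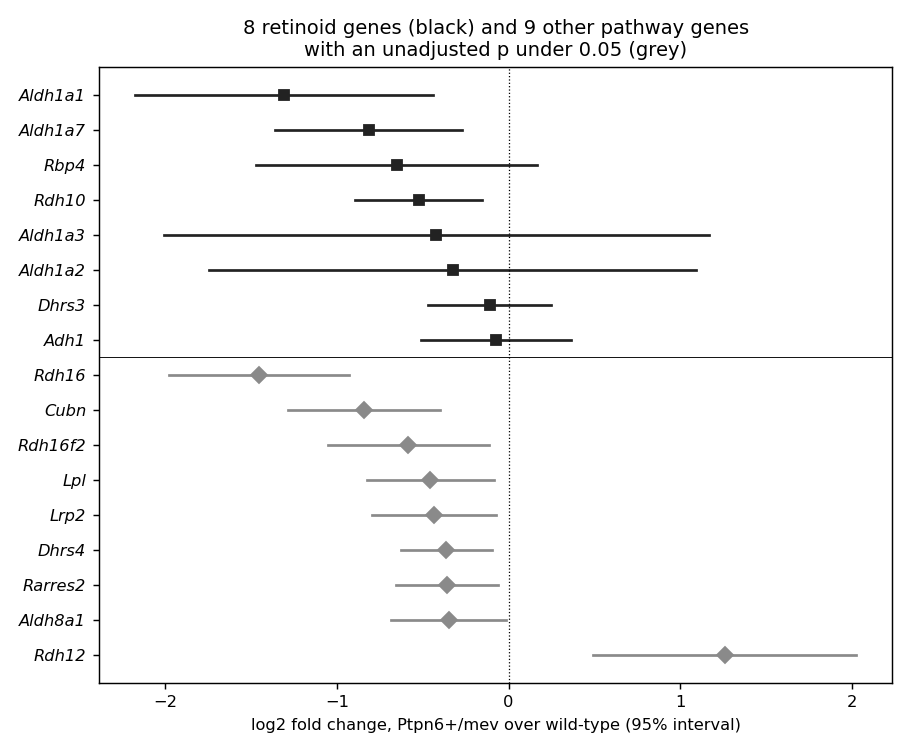
Log2 fold change of Ptpn6+/mev over wild-type kidneys with its 95% interval from edgeR, for the 8 genes (black squares) and the 9 other retinoid genes with an unadjusted p under 0.05 (grey diamonds). The intervals of Aldh1a1, Aldh1a7 and Rdh10 lie below 0, and those of Aldh1a2 and Aldh1a3 reach from below -1 to above 1.

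Readouts downstream of retinoic acid gave no call. Cyp26b1, the retinoic acid hydroxylase with the highest level here, had 2.73, 3.29 and 2.12 FPKM in Ptpn6+/mev kidneys and 3.14, 1.71 and 2.86 FPKM in wild-type kidneys, with a log2 fold change of -0.0051 (SE 0.25, edgeR adjusted p = 0.997). Cyp26a1, which retinoic acid induces in liver and embryo, was at 0.36 FPKM or lower in every library. Of the 6 receptors, 5 were tested and none had an unadjusted p under 0.05: Rxra lay at 28.67 to 35.75 FPKM and Rxrb at 18.07 to 22.85 FPKM. Of 14 genes known to respond to retinoic acid, Dhrs3 among them, 10 were tested and 1 had an unadjusted p under 0.05, Rarres2 (chemerin), with a log2 fold change of -0.36 (SE 0.13, edgeR adjusted p = 0.314). Tgm2, a transglutaminase and the most abundant of the 14, had a log2 fold change of 0.022 (SE 0.11, edgeR adjusted p = 0.964). Among carriers of retinoic acid Fabp5 lay at 3.77 to 11.52 FPKM and gave a log2 fold change of 0.20 (SE 0.33, edgeR adjusted p = 0.879).

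The KEGG annotation deposited with the table names 89 genes under retinol metabolism, 6 of the 8 genes among them, and many of the rest are cytochromes P450 and UDP-glucuronosyltransferases that act on drugs and fatty acids as well. Of the 89, 40 were tested, 32 of these had a log2 fold change below 0 (50.5% of all tested genes had), 16 were lower and 2 higher at an unadjusted p under 0.05, against 6.71% and 5.53% of all tested genes, and the log2 fold changes had a median of -0.40. Of the 16 lower genes, 9 had fractional counts, so their levels are uncertain as that of Rdh16 is. None of the 40 passed the edgeR quasi-likelihood test after adjustment, whereas 12 passed the exact test, 9 DESeq2 and 12 voom, tests that called 2.99%, 2.97% and 3.77% of all genes. With wild-type replicate 2 left out, the edgeR quasi-likelihood test called 5 of the KEGG genes and 1.8% of all genes. Without the 6 genes described here, 34 KEGG genes were tested. Of these, 26 had a log2 fold change below 0, and 13 were lower and 2 higher at an unadjusted p under 0.05. The exact test called 10 of the 34, DESeq2 7 and voom 9. Retsat (retinol saturase), named after its values were seen, had 37.44, 36.95 and 33.16 FPKM in Ptpn6+/mev kidneys and 69.0, 97.46 and 44.79 FPKM in wild-type kidneys. The groups were apart, and its log2 fold change was -1.09 (SE 0.25, edgeR adjusted p = 0.139), or -0.76 without wild-type replicate 2 (edgeR adjusted p = 0.0383). Retsat passed DESeq2 (adjusted p = 0.00182), the exact test (adjusted p = 0.00432) and voom (adjusted p = 0.0223).

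Markers of the cells in which retinoid enzymes are made were measured beside these values. Of 16 proximal tubule markers, 8 were lower and 0 higher at an unadjusted p under 0.05, against 6.71% and 5.53% of all tested genes. Of the 16, 13 had a log2 fold change below 0, as 50.5% of all tested genes had, with a median of -0.44 (-0.45 without wild-type replicate 2), and Slc22a8, an organic anion transporter, passed the edgeR test (log2 fold change -0.91, adjusted p = 0.0443). By the exact test 5 of the 16 passed, by DESeq2 5, by voom 7, and with wild-type replicate 2 left out 6 passed the edgeR quasi-likelihood test. Over all tested genes these tests called 2.99%, 2.97%, 3.77% and 1.8%. Their summed level was 4446 to 5145 FPKM in Ptpn6+/mev kidneys and 4031 to 12872 FPKM in wild-type kidneys, and none was at 0. Much of that sum was Kap, with 2644, 2882 and 2190 FPKM in Ptpn6+/mev kidneys and 2449, 10201 and 1520 FPKM in wild-type kidneys. The sum therefore does not stand for the other markers. Of the 16, 5 had groups apart with the lower values in Ptpn6+/mev kidneys and 0 with the higher, against 6.38% and 14.0% of all tested genes. Of 12 tubular injury markers, 5 were higher and 1 lower at the same level, with a median log2 fold change of 0.21 (0.34 without wild-type replicate 2). The median of the proximal tubule list had the direction of Aldh1a1, Aldh1a7, Cubn and Lrp2, the last 2 being members of it, and that of the injury list had the opposite direction. The part of either list in those values was not tested. Leaving out wild-type replicate 2 turned the sign of the median log2 fold change for loop and distal nephron (-0.19 with it and 0.21 without it), endothelium (0.16 and -0.19), macrophages (0.15 and -0.11) and erythroid cells (0.19 and -0.015). The median moved from -0.048 to -0.48 for fibroblasts and mesangium, from -0.029 to -0.19 for neutrophils, from -0.21 to -0.018 for mesothelium and from -1.40 to -1.96 for adipocytes. It was 0.21 and 0.13 for podocytes and parietal epithelium, -0.95 and -0.84 for liver, and -0.081 and -0.11 for adrenal cortex, whose defining genes Cyp11a1 and Cyp21a1 were at 0. Besides Slc22a8, the marker that passed the edgeR test in these 13 lists was Cldn1 of the podocyte and parietal list, a tight junction gene (log2 fold change 1.10, adjusted p = 0.0044).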

How the data were processed

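Per the labels, poly-A mRNA of 6 kidneys was sequenced. The authors trimmed the reads and aligned them to GRCm38.p5 with TopHat, and the submitters' processing notes name TopHat2 2.0.3.12, Bowtie2, Cufflinks and RSEM. For every gene and library the authors deposited estimated counts beside FPKM values. Estimated counts were fractional for 1744 genes and were rounded, which left 16516 genes with a count. FPKM served for levels and for limma. Whether counting used strand is not given in the sources used here.

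Ptpn6+/mev was compared with wild-type, 3 libraries each, with edgeR 4.0.16 in R 4.3.3 (TMM, filterByExpr, quasi-likelihood F-test, Benjamini-Hochberg adjustment over 13036 genes). The SE is the log2 fold change divided by the square root of F, and intervals are 95%. The 16 alternatives were DESeq2's size factors, upper quartile normalization, DESeq2 1.42.0, edgeR's exact test, limma 3.58.1 on log2(FPKM + 1) or log2(FPKM + 0.1), no filter, a minimum of 10 counts in each library, a block for the replicate number, voom with quality weights, and each library left out. The quasi-likelihood, exact, DESeq2 and voom fits were also run on simulated counts. These held no outlying library, so they do not show how the fits behave with wild-type replicate 2. Sequences and positions were read with Python 3.11.15 and aligned with Biopython 1.88 on GENCODE M21 transcripts and RefSeq promoters.

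The genes, the 10 retinoid lists, the 13 marker lists and the tests were chosen with earlier results of these data known. Named are the 8 genes, retinoid genes with an unadjusted p under 0.05, the 2 most abundant of each retinoid list, the 3 nearest profiles, and, from marker lists, called, abundant or absent genes. Others, such as Stra6, Stra6l, Lrat, Cyp26a1, Rbp7, Upk3b and Retsat, were chosen after their values were seen. The planned protein comparison was replaced by one of coding sequences.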

Additional observations from a re-analysis of the deposited data

How the results depend on the processing

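Of the 8 genes, 0 were called in the quasi-likelihood test and in 13 of 16 alternatives, 2 by DESeq2, 2 by the exact test and 3 by voom with quality weights. Of the retinoid genes together, 4 were called by DESeq2, 5 by the exact test, 7 by voom, 1 without a filter on low counts, and 0 to 3 with each library left out. Of all genes, 387 were called by DESeq2, 390 by the exact test, 492 by voom, 52 without a filter, 1 with the replicate block, and 1 to 237 with each library left out, the most without wild-type replicate 2. Same-numbered mice did not deviate together (correlations of -0.144, -0.184 and -0.130), so the numbers were not taken as pairs, and the replicate block called 0 of the 8 genes. Aldh1a1, Aldh1a7, Rbp4, Rdh10 and Dhrs3 kept their direction in all 16 alternatives, and with each library left out Aldh1a1 ranged from -1.59 to -0.79, Aldh1a7 from -1.04 to -0.57 and Rdh10 from -0.66 to -0.37 in log2 fold change. Directions turned for the following genes. On log2 FPKM, limma gave 0.027 for Adh1 and 0.036 for Adh5 with either pseudocount, and 0.068 and 0.098 for Cyp26b1. Upper quartile normalization and the replicate block gave 0.0022 and 0.0029 for Cyp26b1, and voom gave -0.080 for Fabp5 and -0.025 for Tgm2. With each library left out the ranges were -0.27 to 0.13 for Adh1, -0.99 to 0.053 for Aldh1a2, -1.59 to 0.12 for Aldh1a3, -0.10 to 0.0065 for Adh5, -0.22 to 0.32 for Bco1, -0.21 to 0.15 for Cyp26b1, -0.12 to 0.54 for Fabp5, -0.045 to 0.27 for Rdh11, -0.044 to 0.097 for Rxrb and -0.078 to 0.10 for Tgm2. The cause was not tested. Among the 8 genes, depth was lowest for Aldh1a3 and Rbp4, at 10 to 75 counts in a library, and the 95% intervals of both reached across 0.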
